A study of Mus musculus with 24 samples.

Results

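Genes of the major histocompatibility complex (MHC) and of the machinery that feeds peptides to it were followed across mouse thyroid tissue and thyroid tumours. The genes were chosen by name: all those whose symbol starts with H2-, the prefix of the mouse MHC, together with B2m, Cd74, Ciita, Tap1, Tap2, Tapbp, Psmb8, Psmb9, Psmb10, Psme1, Psme2 and Nlrc5. Each was read through its brightest probe set that names a single gene, which gave 31 genes out of the 12394 on the array. Nlrc5 and Psme2, and some H2 genes that share every probe set with a neighbour, were not analysed here. The 31 genes comprise 3 class I chains, 7 genes of class I peptide supply, 9 class II genes, 11 other class I loci, and H2-Ke6, a hydroxysteroid dehydrogenase of the same region that takes no part in antigen presentation.

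RNA from 24 mouse thyroid samples was read on Affymetrix Mouse430A_2 arrays, and all values below are on the log2 scale. By their tissue label, 6 arrays hold pools of normal glands, 4 hold papillary thyroid cancer (PTC), which keeps follicular features, 5 hold anaplastic cancer (ATC), which has lost them, and 9 hold a recurrent tumour. The series concerns mouse anaplastic tumours that resist inactivation of the kinase BRAF, and its text speaks of various mouse models studied at baseline. Genotype, strain, age and treatment of a given array are not given in the labels used here, except that the titles of 4 normal pools carry WT and those of the other 2 carry Cre. The labels do not say that arrays of a group come from separate animals, so p-values measure only the spread between these samples, which may be technical. MHC genes differ between mouse strains, and probes made for a strain's allele can read another allele poorly, so a difference in strain and a difference in RNA cannot be told apart here.

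MHC class I molecules sit on nearly all nucleated cells and show peptides from inside the cell to CD8 T cells. The proteasome cuts proteins into these peptides, the TAP transporter carries them into the endoplasmic reticulum, and tapasin helps load them onto a heavy chain paired with beta-2 microglobulin. MHC class II molecules are made mainly by macrophages, dendritic cells and B cells under the transactivator CIITA, and show peptides from endosomes to CD4 T cells. Interferon gamma can switch on class II, and raises class I, in many other cells, thyroid follicular cells among them. In tumours, loss of class I presentation is a known route by which cells escape T cells.

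Array medians lay between 7.38 and 7.58, no 2 of the 276 pairs of arrays were identical, and precision is set by how few arrays a group has. Tg, the gene of thyroglobulin and the defining follicular product, lay from 14.80 to 14.96 with a median of 14.88 in the normal pools. In ATC its levels were 5.98, 5.29, 4.46, 13.48 and 5.51, so that ATC 4 stands apart from the other ATC arrays. Tg lay at 11.31 on recurrent 1, at 14.18 on recurrent 4 and between 4.61 and 5.86 on the other 7 recurrent arrays. Over 5 pan-leukocyte genes, the mean level per array ran from 8.06 to 10.22 in normal pools, from 9.39 to 11.15 in PTC, from 10.43 to 11.37 in ATC and from 6.87 to 11.38 in recurrent tumours. Over 12 macrophage genes it ran from 7.83 to 9.55, from 8.96 to 9.94, from 10.29 to 11.03 and from 7.49 to 11.17 in the same order. Over 6 epithelial genes it ran from 11.31 to 12.53, from 12.15 to 12.53, from 10.81 to 13.03 and from 8.54 to 11.18. Because each array holds RNA of a whole tissue piece, fewer cells of a type and less RNA per cell cannot be told apart in any result below. Titles also differ: JK stands in the titles of 4 normal, all 4 PTC, 2 ATC and 3 recurrent arrays, Cre in those of 2 normal pools, and the other 3 ATC and 6 recurrent arrays have a bare number. What these title kinds stand for is not stated. Values within the JK arrays are given, in some comparisons, for H2-K1, Tap1, Tap2, Tapbp, Psmb9, H2-DMa, H2-Eb1, Cd74 and H2-Q2 only. Among all 31 genes, 18 of 48 called differences were not called in JK arrays alone.

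The promoters of some of the genes that the results turn on are printed to show what lies before their starts. They come from RefSeq (assembly GRCm38.p6), which had an entry for 21 of the 31 genes, and each is the 180 bases before the annotated start, read 5′ to 3′ on the gene's strand. Capitals mark 3 motifs searched on both strands: CCAAT, which reads ATTGG on the other strand, the core of the Y box that class II and many class I promoters carry; a GAAA repeat with a gap of 2 bases, the core of an interferon response element; and GGGATTCC, a kappa B site of class I promoters.
H2-K1, chr17:34000348-34000527, minus strand: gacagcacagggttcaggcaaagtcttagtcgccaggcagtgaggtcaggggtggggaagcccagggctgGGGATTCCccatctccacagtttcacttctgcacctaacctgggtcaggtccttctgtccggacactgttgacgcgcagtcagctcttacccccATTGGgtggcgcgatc
H2-D1, chr17:35262914-35263093, plus strand: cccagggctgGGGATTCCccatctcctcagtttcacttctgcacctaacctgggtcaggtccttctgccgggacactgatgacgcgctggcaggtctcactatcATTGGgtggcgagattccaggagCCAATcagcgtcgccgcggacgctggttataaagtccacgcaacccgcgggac
B2m, chr2:122147507-122147686, plus strand: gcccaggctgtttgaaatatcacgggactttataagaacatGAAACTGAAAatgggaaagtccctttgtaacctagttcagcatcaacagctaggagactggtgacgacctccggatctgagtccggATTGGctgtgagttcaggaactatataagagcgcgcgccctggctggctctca
Psmb9, chr17:34187331-34187510, minus strand: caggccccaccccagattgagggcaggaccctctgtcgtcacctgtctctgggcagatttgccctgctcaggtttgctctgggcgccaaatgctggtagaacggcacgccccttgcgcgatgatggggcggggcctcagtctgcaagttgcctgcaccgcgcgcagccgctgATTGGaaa
H2-Q2, chr17:35342127-35342306, plus strand: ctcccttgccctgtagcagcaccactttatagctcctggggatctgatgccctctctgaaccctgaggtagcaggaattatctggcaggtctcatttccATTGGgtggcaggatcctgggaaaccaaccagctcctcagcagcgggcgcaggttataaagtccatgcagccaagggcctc
H2-Aa, chr17:34287824-34288003, minus strand: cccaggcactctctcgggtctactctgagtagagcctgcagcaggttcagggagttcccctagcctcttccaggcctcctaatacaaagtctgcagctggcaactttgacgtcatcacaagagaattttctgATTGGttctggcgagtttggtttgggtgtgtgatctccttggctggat
H2-Eb1, chr17:34305687-34305866, plus strand: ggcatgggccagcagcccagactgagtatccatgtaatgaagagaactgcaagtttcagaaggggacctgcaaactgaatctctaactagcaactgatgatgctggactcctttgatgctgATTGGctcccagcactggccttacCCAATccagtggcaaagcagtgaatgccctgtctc

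None of the capital stretches overlaps another. In the 250 bases before the start, CCAAT was found in 16 of the 21 genes, against 37.5% of 27025 genes with a promoter in the same table. Stretches of Tapbp and H2-DMa were also read and are not printed. That of Tapbp holds ATTGG, and that of H2-DMa holds none of the 3 motifs. The match counted for H2-DMa begins 198 bases before another annotated start of the gene. The kappa B letters were found in 2 of 21, the heavy chain genes H2-K1 and H2-D1, against 1.04% of all genes, and the interferon letters in 1 of 21, B2m, against 3.46%. H2-K1 and H2-D1 carry the same kappa B letters with the same bases around them, and the values of both follow below. The Psmb9 stretch also lies within 250 bases before the start of Tap1, which is read on the opposite strand, so the CCAAT match next to the Psmb9 start is the one found for Tap1. A match describes letters in the sequence and was not tested as a site in use.

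Counted over the 31 genes, called means an adjusted p under 0.05 in limma's fit of the 4 group means, and the share of all 12394 genes called in the same direction is given beside each count. Against normal glands, PTC had 1 gene higher (6.16% of all genes) and 1 lower (8.03%). ATC had 1 higher (15.1%) and 11 lower (19.1%) than normal glands, and recurrent tumours had 0 higher (14.5%) and 10 lower (19.3%), with 0 higher and 14 lower at an unadjusted p under 0.05. Against PTC, ATC had 0 higher (7.81%) and 9 lower (9.35%), and recurrent tumours 0 higher (9.71%) and 14 lower (12.1%), with 0 higher and 10 and 17 lower at an unadjusted p under 0.05. Between recurrent tumours and ATC, 0 were higher (1.19%) and 1 was lower (3.12%), with 0 and 4 at an unadjusted p under 0.05. The median difference of the 31 genes was -0.23 in ATC against normal (-0.08 over all genes), -0.45 in recurrent tumours against normal (-0.03), -0.28 in ATC against PTC (-0.06) and -0.50 in recurrent tumours against PTC (-0.01). In PTC against normal it was 0.03 (-0.01 over all genes) and in recurrent tumours against ATC -0.10 (0.05). Comparisons that share a group share its arrays, so their counts are not separate pieces of evidence. Groups this small often do not overlap. Without overlap, 8 of the 31 genes and 2377 of all 12394 lay lower in ATC than in normal glands. Against PTC these were 8 and 2167. In recurrent tumours 3 and 635 lay lower than in normal glands, and 3 and 683 lower than in PTC. In PTC 3 and 1808 lay higher than in normal glands, and 4 and 2443 lower. In ATC 1 and 1852 lay higher than in normal glands.

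**Figure D1:**
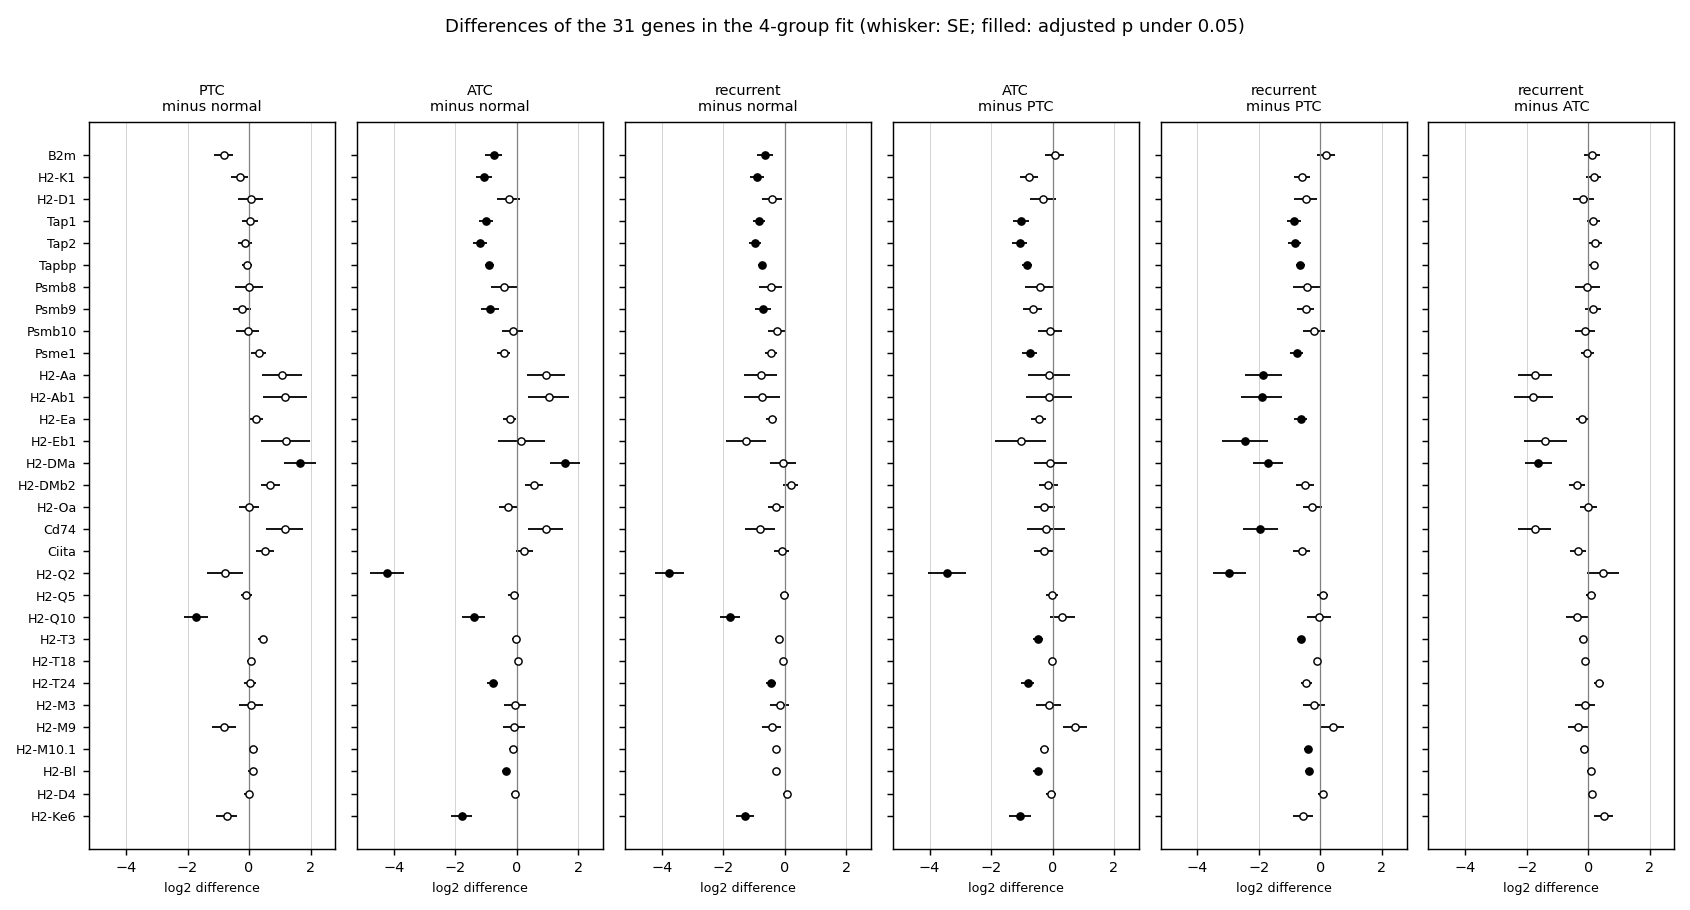
Log2 difference with its SE for each of the 31 genes (rows) in 6 comparisons (columns) of the 4-group fit, with filled points where limma's adjusted p is under 0.05. Class I chains, the transporter genes and H2-Q2 lie left of 0 in ATC and recurrent tumours against normal, and 8 of the 9 class II genes lie right of 0 in PTC and 7 of 9 in ATC against normal.

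Recurrent tumours varied more than the other groups: the median SD of the 31 genes was 0.64 there, against 0.26 in normal pools, 0.25 in PTC and 0.30 in ATC, and over all genes the medians were 0.52, 0.18, 0.14 and 0.27. Since the 4-group fit shares a single spread, a fit of only the 2 groups compared was set beside it. It called 8 of the 31 genes higher and 5 lower in PTC than in normal glands (21.3% and 24.5% of all genes), and 5 higher and 11 lower in ATC (22.8% and 28.2%). In ATC against PTC it called 0 higher and 10 lower (17.4% and 19.6%), with 1 and 11 at an unadjusted p under 0.05. In recurrent tumours it called 0 higher and 7 lower than normal (10.7% and 14.7%), 0 higher and 4 lower than PTC (4.24% and 6.61%) and 0 in either direction against ATC (0.0565% and 0.742%). Where a call printed for a gene of the 31 was not made by both fits, the other fit's value is given in the same paragraph.

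The classical class I heavy chain H2-K1, which holds the peptide, was lower in ATC and in recurrent tumours than in normal glands. In normal pools H2-K1 lay from 13.01 to 13.49 with a median of 13.09, in PTC at 13.06, 12.83, 12.49 and 12.96, and in ATC at 11.59, 12.24, 12.06, 12.21 and 12.21. Recurrent arrays lay from 10.63 to 12.66 with a median of 12.53. Every ATC and every recurrent array was below every normal pool. PTC overlapped normal and recurrent arrays and lay above all ATC arrays, by -0.78 ± 0.29 (SE, limma's adjusted p = 0.0698) for ATC minus PTC, a difference called in the 2-group fit (limma's adjusted p = 0.00586). H2-K1 fell by 1.08 ± 0.26 (SE, limma's adjusted p = 0.00271) in ATC and by 0.91 ± 0.23 (SE, limma's adjusted p = 0.00354) in recurrent tumours against normal, and its difference in PTC was -0.31 ± 0.28 (SE, limma's adjusted p = 0.566). Among JK arrays alone the ATC difference was -1.17 (limma's adjusted p = 0.0687) and the recurrent difference -1.15 (limma's adjusted p = 0.0368). Another H2-K1 probe set of similar brightness, which like the used one can read related genes, differed by -0.26 in ATC and -0.39 in recurrent tumours, and a pair of dimmer ones by -1.01 and -0.94 in ATC.

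H2-D1, the other classical heavy chain, lay from 12.35 to 13.25 with a median of 12.52 in normal pools, at 13.05, 12.70, 12.52 and 12.50 in PTC and at 12.20, 12.19, 12.47, 12.43 and 12.60 in ATC. Its recurrent levels lay from 9.81 to 12.91 with a median of 12.61, and recurrent 3 held the lowest. The groups overlapped, and the difference was -0.26 ± 0.38 (SE, limma's adjusted p = 0.641) in ATC and -0.43 ± 0.33 (SE, limma's adjusted p = 0.338) in recurrent tumours against normal. A p above the threshold does not show that the levels are alike.

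B2m, the light chain common to class I molecules, lay from 13.05 to 13.49 with a median of 13.30 in normal pools, at 12.86, 12.44, 12.03 and 12.52 in PTC and at 11.93, 11.80, 12.86, 13.24 and 12.79 in ATC. The first 2 ATC values are from JK arrays and lie below all normal pools, while ATC 4 lies within the normal range. Recurrent arrays lay from 11.57 to 13.11 with a median of 12.86, lowest on recurrent 3 (11.57) and recurrent 6 (11.74). B2m fell by 0.76 ± 0.28 (SE, limma's adjusted p = 0.0418) in ATC and by 0.64 ± 0.25 (SE, limma's adjusted p = 0.0482) in recurrent tumours, the latter not called in the 2-group fit (limma's adjusted p = 0.0575). Both calls were lost when 1 of several arrays was left out, with differences of -0.58 without ATC 2 and -0.51 without recurrent 3 (limma's adjusted p = 0.133 and 0.0757). In PTC all 4 arrays were below all normal pools, the difference was -0.82 ± 0.30 (SE, limma's adjusted p = 0.074), and the 2-group fit called it lower by 0.82 ± 0.14 (SE, limma's adjusted p = 0.000803 in the 2-group fit).

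The transporter of peptides, made of TAP1 and TAP2, and tapasin, the loading factor encoded by Tapbp, were all lower in ATC and recurrent tumours than in normal glands and than in PTC. Their differences between PTC and normal glands lay between -0.13 and 0.03. Tap2 lay from 8.31 to 9.06 with a median of 8.85 in normal pools and at 8.76, 8.74, 8.66 and 8.43 in PTC. In ATC it lay at 7.53, 7.92, 7.32, 7.71 and 7.38, below every normal and PTC array. Recurrent arrays lay from 6.66 to 8.52 with a median of 7.81, and the highest, recurrent 8, lay above the lowest normal pool. Tap2 fell by 1.20 ± 0.23 (SE, limma's adjusted p = 0.000266) in ATC and by 0.97 ± 0.20 (SE, limma's adjusted p = 0.000564) in recurrent tumours against normal, and by 1.07 ± 0.25 (SE, limma's adjusted p = 0.00452) in ATC against PTC. Recurrent tumours were lower than PTC by 0.84 ± 0.22 (SE, limma's adjusted p = 0.00904), which was not called in the 2-group fit (limma's adjusted p = 0.0588). Its PTC difference from normal was -0.13 ± 0.24 (SE, limma's adjusted p = 0.83). JK arrays alone gave -0.92 (limma's adjusted p = 0.1) for ATC against PTC.

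Tap1 lay from 7.75 to 8.71 with a median of 8.14 in normal pools, at 8.46, 8.03, 7.95 and 8.31 in PTC and at 7.21, 7.64, 7.02, 6.96 and 6.96 in ATC, where every array was below every normal and PTC array. Recurrent arrays lay from 6.89 to 8.39 with a median of 7.04, and recurrent 1, at 8.39, lay inside the normal range. Tap1 fell by 1.00 ± 0.23 (SE, limma's adjusted p = 0.00188) in ATC, by 0.84 ± 0.20 (SE, limma's adjusted p = 0.00278) in recurrent tumours and by 1.03 ± 0.26 (SE, limma's adjusted p = 0.00772) in ATC against PTC. The JK arrays alone gave -0.76 (limma's adjusted p = 0.161) for ATC and -0.76 (limma's adjusted p = 0.094) for recurrent tumours against normal, and -0.76 (limma's adjusted p = 0.216) and -0.76 (limma's adjusted p = 0.109) for ATC and recurrent tumours against PTC. Of 3 further Tap1 probe sets, all dimmer, 1 moved the same way in ATC (-0.58) and the others by 0.09 and 0.06.

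Tapbp lay from 11.04 to 11.68 with a median of 11.33 in normal pools, at 11.26, 11.26, 11.17 and 11.35 in PTC and at 10.38, 10.50, 10.37, 10.58 and 10.33 in ATC. Recurrent arrays lay from 10.01 to 10.95 with a median of 10.69. Neither ATC nor recurrent tumours overlapped normal glands or PTC. Tapbp fell by 0.90 ± 0.15 (SE, limma's adjusted p = 6.76e-05) in ATC and by 0.73 ± 0.13 (SE, limma's adjusted p = 0.000144) in recurrent tumours, and against PTC by 0.83 ± 0.16 (SE, limma's adjusted p = 0.00125) and by 0.66 ± 0.15 (SE, limma's adjusted p = 0.00246). Among JK arrays alone the ATC difference from normal was -0.81 (limma's adjusted p = 0.0131). A dimmer Tapbp probe set differed by -0.19 in ATC and by -0.03 in recurrent tumours against normal, and by 0.08 and 0.25 against PTC. With the mean of both probe sets the differences from PTC were -0.37 (limma's adjusted p = 0.131) and -0.20 (limma's adjusted p = 0.366).

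**Figure D2:**
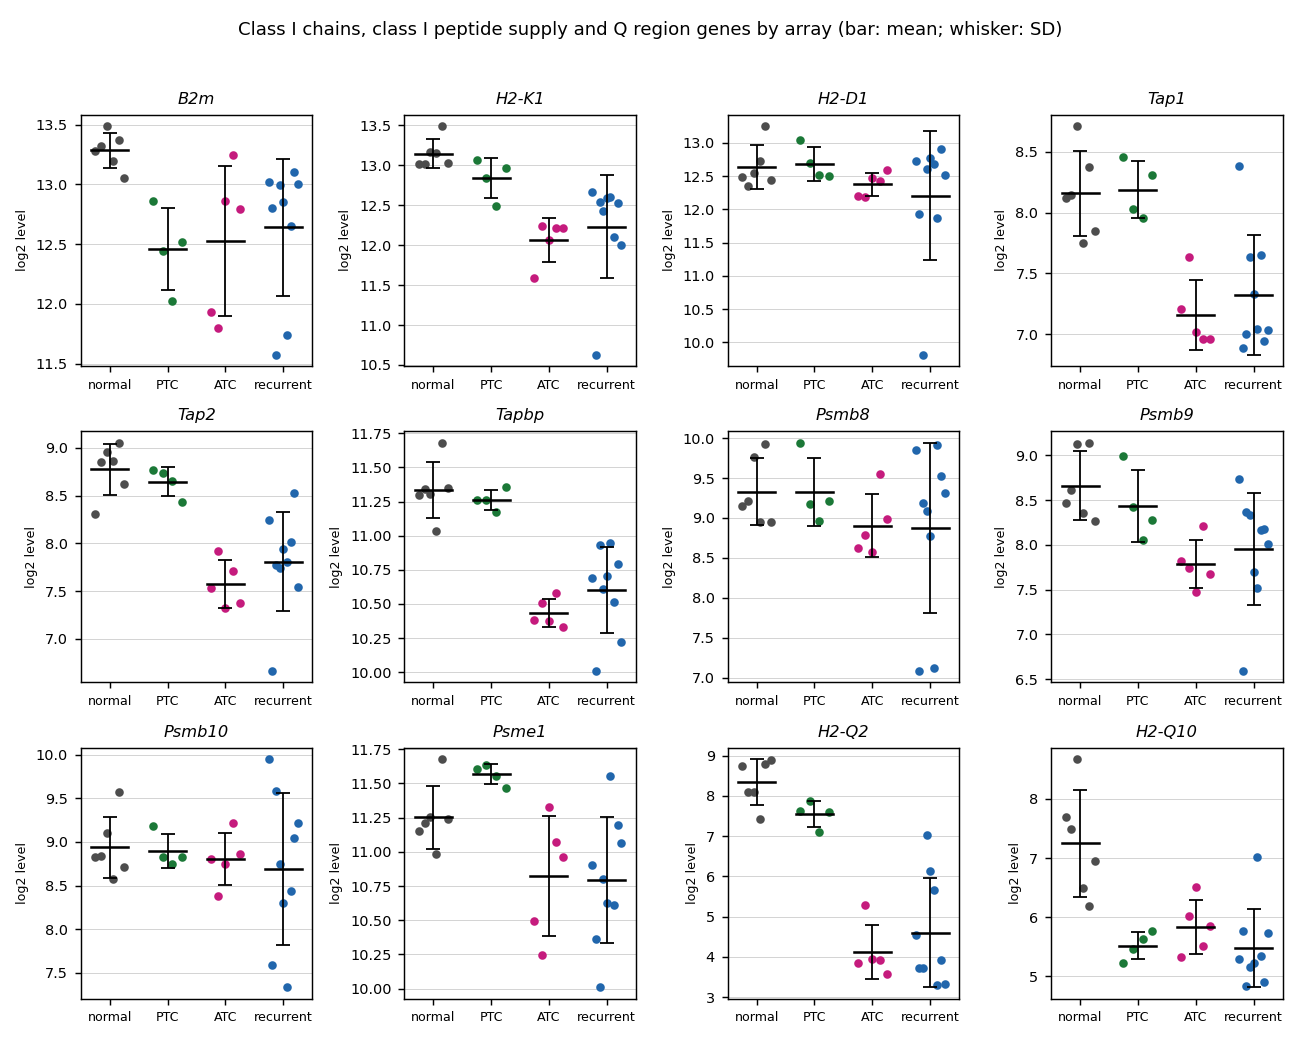
Log2 level of 12 class I, peptide supply and Q region genes (panels) on each array (points) in normal, PTC, ATC and recurrent tissue, with the mean and SD. Tap1, Tap2, Tapbp and H2-Q2 lie lower on all 5 ATC arrays than on any normal or PTC array. Of all 12394 genes, 2377 lie lower in ATC without overlap with normal glands, and 2167 without overlap with PTC.

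Psmb8, Psmb9 and Psmb10 encode the immunoproteasome's catalytic subunits, which replace constitutive subunits in immune cells and under interferon, and Psme1 encodes a subunit of a proteasome activator. Psmb9 lay from 8.27 to 9.14 with a median of 8.54 in normal pools, at 8.99, 8.42, 8.06 and 8.27 in PTC and at 7.82, 7.74, 7.47, 8.21 and 7.67 in ATC, where no array reached the normal range. It fell by 0.87 ± 0.28 (SE, limma's adjusted p = 0.0196) in ATC and by 0.71 ± 0.25 (SE, limma's adjusted p = 0.03) in recurrent tumours, where levels lay from 6.59 to 8.73 with a median of 8.16. The first call was lost without ATC 3 (-0.80, limma's adjusted p = 0.0534), the second without normal 3 or normal 5 (-0.61 each, limma's adjusted p = 0.081 and 0.0769), and JK arrays alone gave -0.85 (limma's adjusted p = 0.212) for ATC and -0.74 (limma's adjusted p = 0.185) for recurrent tumours. In the 2-group fit the recurrent difference was not called (limma's adjusted p = 0.0726), while ATC was lower than PTC by 0.65 ± 0.21 (SE, limma's adjusted p = 0.0328 in the 2-group fit), against -0.65 ± 0.31 (SE, limma's adjusted p = 0.167) in the 4-group fit. Psmb8 and Psmb10 passed in 0 comparisons: their ATC differences from normal were -0.42 ± 0.43 (SE, limma's adjusted p = 0.49) and -0.14 ± 0.35 (SE, limma's adjusted p = 0.804). Both were lowest on recurrent 2 (7.08 and 7.59) and recurrent 6 (7.12 and 7.33), where the pan-leukocyte mean was 10.29 and 6.87 and the macrophage mean 8.32 and 7.49.

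Psme1 lay at 11.61, 11.63, 11.56 and 11.47 in PTC and, in normal pools, from 10.98 to 11.68 with a median of 11.23, a difference of 0.31 ± 0.24 (SE, limma's adjusted p = 0.461). In ATC it lay at 10.50, 10.25, 11.33, 11.07 and 10.96 and in recurrent tumours from 10.01 to 11.56 with a median of 10.80. It fell by 0.74 ± 0.25 (SE, limma's adjusted p = 0.0396) in ATC and by 0.77 ± 0.22 (SE, limma's adjusted p = 0.0141) in recurrent tumours against PTC, the latter not called in the 2-group fit (limma's adjusted p = 0.0527). The ATC call was lost in 7 of the fits that left out an array, among them that without ATC 2 (-0.60, limma's adjusted p = 0.0999), and the JK arrays of ATC are again the lowest pair, at 10.50 and 10.25.

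Genes that serve the same steps but were not chosen by the rule moved in differing ways. Of 11 genes of folding, translocation and class I-like presentation, 6 fell in PTC, 7 in ATC and 6 in recurrent tumours against normal, where 8.03%, 19.1% and 19.3% of all genes did. In these comparisons 0 rose, with 1 rise at an unadjusted p under 0.05, in ATC. Pdia3, the disulfide isomerase bound to tapasin, fell by 1.16 ± 0.29 (SE, limma's adjusted p = 0.00913) in PTC and by 1.31 ± 0.27 (SE, limma's adjusted p = 0.000801) in ATC. Tapbpl, a tapasin-like editor, fell by 0.99 ± 0.24 (SE, limma's adjusted p = 0.00261) in ATC, and Canx, the chaperone calnexin, by 0.85 ± 0.20 (SE, limma's adjusted p = 0.00235). Most of these chaperones serve all secreted proteins, thyroglobulin among them. Among 16 genes of the constitutive proteasome and its other activators, 0 rose and 3 fell in PTC against normal (6.16% and 8.03% of all genes). The 2-group fit called 1 and 7 (21.3% and 24.5% of all genes), and the median difference was -0.31. In ATC 3 rose and 0 fell (15.1% and 19.1% of all genes), a share of rises near that of all genes, and 6 rose and 0 fell in recurrent tumours (14.5% and 19.3%), with 0 falls at an unadjusted p under 0.05 as well. Against PTC, 8 rose in ATC and 11 in recurrent tumours (7.81% and 9.71% of all genes), and 0 fell, while the immunoproteasome genes had 0 rises. Psmb5, the constitutive counterpart of Psmb8, rose by 0.61 ± 0.15 (SE, limma's adjusted p = 0.00577) in ATC against PTC, and Psmb7, that of Psmb10, by 1.33 ± 0.40 (SE, limma's adjusted p = 0.0245). Whether a subunit and its counterpart moved unequally was not tested.

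Most class II genes lay on the other side of normal glands in PTC and ATC. The I-A pair H2-Aa and H2-Ab1, the invariant chain Cd74, and the peptide exchange factor H2-DMa were all higher on average there than in normal glands, and recurrent tumours spread from far below the normal range to the PTC range. H2-DMa lay from 7.37 to 8.62 with a median of 7.75 in normal pools, at 10.47, 9.44, 8.92 and 9.24 in PTC and at 9.12, 9.27, 9.11, 10.09 and 9.63 in ATC, with no overlap between normal and either tumour type. It rose by 1.65 ± 0.52 (SE, limma's adjusted p = 0.0342) in PTC and by 1.58 ± 0.48 (SE, limma's adjusted p = 0.0142) in ATC, and was the single class II gene called in the 4-group fit in either. The PTC call was lost in 7 of the fits that left out an array, at 1.33 without PTC 1 (limma's adjusted p = 0.144). JK arrays alone gave 1.80 (limma's adjusted p = 0.0123) for PTC and 1.47 (limma's adjusted p = 0.0635) for ATC, and with title kind as a block the ATC difference was 1.55 (limma's adjusted p = 0.0612).

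H2-Ab1 lay from 10.02 to 11.67 with a median of 10.41 in normal pools, where the highest, normal 5 at 11.67, is a pool with Cre in its title. It lay at 12.46, 11.62, 10.999 and 11.56 in PTC and at 11.19, 11.36, 11.10, 12.31 and 11.74 in ATC. On the probe set used, every normal pool apart from normal 5 was below every PTC and ATC array. The differences were 1.16 ± 0.72 (SE, limma's adjusted p = 0.337) in PTC and 1.03 ± 0.67 (SE, limma's adjusted p = 0.254) in ATC, and the 2-group fits called rises of 1.16 ± 0.34 (SE, limma's adjusted p = 0.0157 in the 2-group fit) and 1.03 ± 0.30 (SE, limma's adjusted p = 0.0128 in the 2-group fit). H2-Aa, its partner chain, differed by 1.07 ± 0.65 (SE, limma's adjusted p = 0.324) and 0.95 ± 0.61 (SE, limma's adjusted p = 0.25), called in the 2-group fits (limma's adjusted p = 0.012 and 0.00765). Cd74 differed by 1.16 ± 0.61 (SE, limma's adjusted p = 0.239) and 0.94 ± 0.57 (SE, limma's adjusted p = 0.219), likewise called in the 2-group fits (limma's adjusted p = 0.00476 and 0.0111).

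In total the 2-group fits called 7 of 9 class II genes higher in PTC and 5 of 9 in ATC than in normal glands, against 21.3% and 22.8% of all genes. H2-DMb2, a partner of H2-DMa in peptide exchange, was among both, with 0.70 ± 0.20 (SE, limma's adjusted p = 0.0131 in the 2-group fit) in PTC and 0.56 ± 0.19 (SE, limma's adjusted p = 0.0281 in the 2-group fit) in ATC. The other 2, H2-Ea, the I-E alpha chain that several laboratory strains do not express, and H2-Oa, which restrains H2-DM, were called in neither, with PTC differences of 0.22 ± 0.16 (SE, limma's adjusted p = 0.316 in the 2-group fit) and -0.01 ± 0.20 (SE, limma's adjusted p = 0.962 in the 2-group fit). Ciita, the master transactivator, was among the PTC calls: it lay from 5.67 to 6.28 with a median of 6.001 in normal pools and at 6.77, 6.48, 6.25 and 6.46 in PTC, a rise of 0.52 ± 0.14 (SE, limma's adjusted p = 0.0123 in the 2-group fit). In ATC it lay at 6.13, 6.15, 5.64, 6.86 and 6.28, and the difference was 0.24 ± 0.20 (SE, limma's adjusted p = 0.332 in the 2-group fit). A dimmer Ciita probe set lay from 4.89 to 6.30 in normal pools and at 7.23, 6.59, 6.22 and 6.27 in PTC. In ATC that probe set lay at 5.85, 6.01, 5.14, 7.19 and 6.54, so the size of the Ciita differences depends on the probe set. H2-Eb1, the I-E beta chain, rose by 1.19 ± 0.35 (SE, limma's adjusted p = 0.0157 in the 2-group fit) in PTC. Its ATC levels were 7.72, 10.57, 10.38, 11.78 and 11.19, and the first stands far below the others, on an array where H2-Aa lay at 12.01. The ATC difference from normal was 0.15 ± 0.59 (SE, limma's adjusted p = 0.849 in the 2-group fit).

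Leukocyte genes were higher in the same groups. All 5 pan-leukocyte genes and 11 of 12 macrophage genes passed in ATC against normal, and 0 of 5 and 1 of 12 in PTC (4 of 5 and 9 of 12 in the 2-group fit). Of all genes, 15.1% were higher in ATC and 6.16% in PTC (21.3% in the 2-group fit). Csf1r, the macrophage growth factor receptor, lay from 10.53 to 11.88 with a median of 10.88 in normal pools, at 12.25, 11.68, 11.23 and 11.48 in PTC and at 11.82, 11.57, 12.04, 12.51 and 11.85 in ATC, and its ATC difference was 0.96 ± 0.56 (SE, limma's adjusted p = 0.201). Itgax, the gene of the dendritic and macrophage integrin CD11c, rose by 2.27 ± 0.57 (SE, limma's adjusted p = 0.00886) in PTC and by 2.23 ± 0.54 (SE, limma's adjusted p = 0.00257) in ATC; it was chosen after its values were seen. It was the single rise among 7 measured dendritic genes, of which 1 fell in PTC and 2 in ATC (4 rose and 1 fell, and 3 rose and 2 fell, in the 2-group fits). Of 7 measured B cell genes 2 fell and 0 rose in ATC (1 rose in the 2-group fit), with a median difference of -0.22, and of 11 T and NK cell genes 2 fell and 0 rose (4 and 0 in the 2-group fit). Of all genes, 19.1% fell in ATC and 8.03% in PTC (28.2% and 24.5% in the 2-group fits). The share of T and NK cell genes that fell in the 4-group fit is near that of all genes. The B cell gene Cd79b fell by 2.27 ± 0.36 (SE, limma's adjusted p = 4.52e-05) in ATC, and the T cell gene Cd3e differed by -0.16 ± 0.18 (SE, limma's adjusted p = 0.53). Normal 5 held the highest normal level of Csf1r (11.88) as well as of H2-Ab1. Without it, the 2-group fits called 9 of the 31 genes higher and 4 lower in PTC, and 5 higher and 11 lower in ATC, a check added after its leukocyte levels were seen. The part that leukocyte number plays in the class II differences was not tested.

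**Figure D3:**
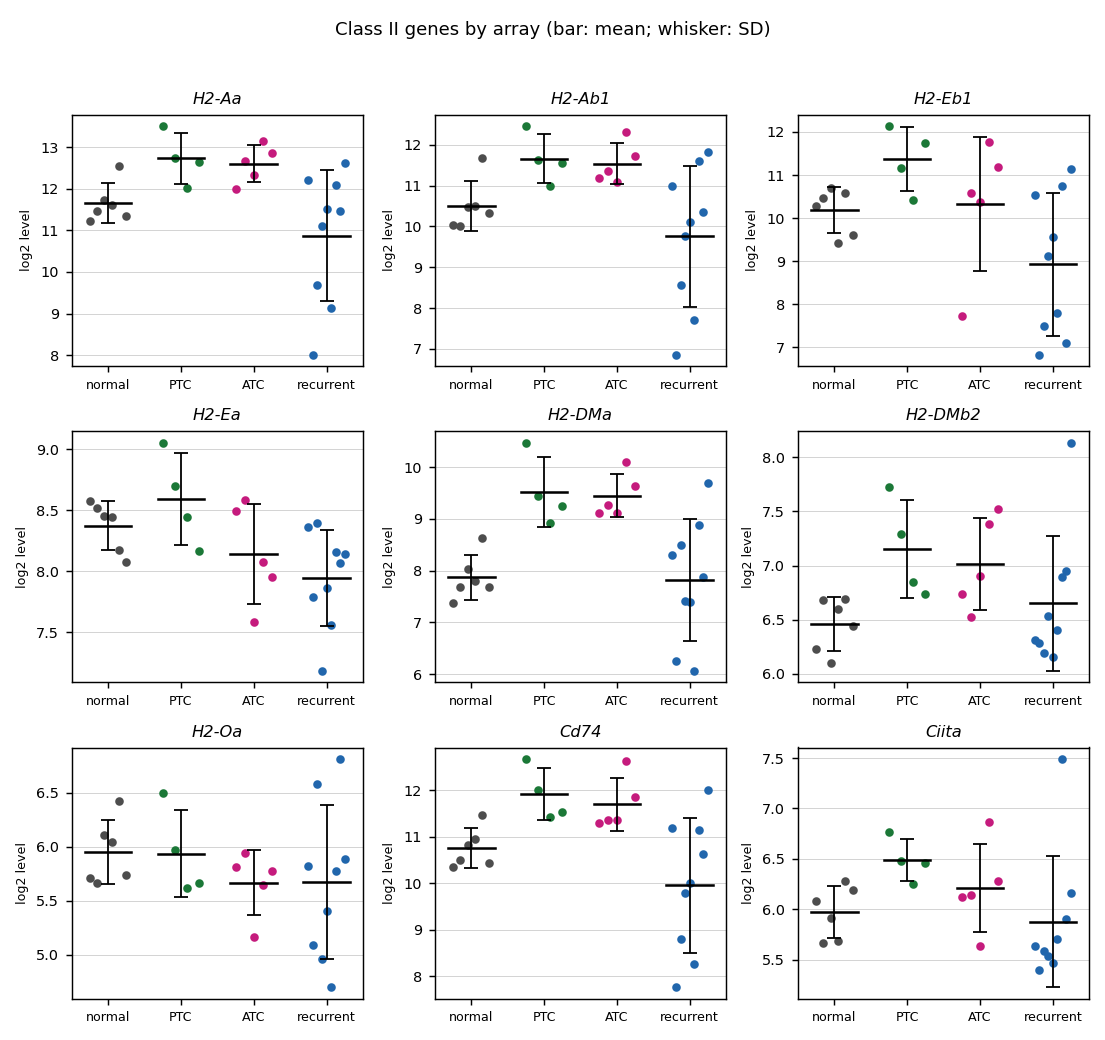
Log2 level of the 9 class II genes (panels) on each array (points) by tissue, with the mean and SD. PTC and ATC arrays lie above most normal pools for H2-Aa, H2-Ab1, H2-DMa and Cd74, and recurrent arrays spread over 4.96 for H2-Ab1.

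Recurrent tumours had lower class II levels than PTC in the 4-group fit, which called 6 of 9 genes lower (12.1% of all genes): H2-Aa, H2-Ab1, H2-Ea, H2-Eb1, H2-DMa and Cd74. H2-Eb1 fell by 2.44 ± 0.75 (SE, limma's adjusted p = 0.0223), Cd74 fell by 1.96 ± 0.57 (SE, limma's adjusted p = 0.0156), H2-Ab1 fell by 1.91 ± 0.67 (SE, limma's adjusted p = 0.0439) and H2-Aa fell by 1.86 ± 0.61 (SE, limma's adjusted p = 0.031). With the mean of all probe sets of a gene, H2-Ab1 gave -1.26 (limma's adjusted p = 0.189) and H2-Aa -1.68 (limma's adjusted p = 0.0621). The 2-group fit called 0 of 9 (6.61% of all genes lower), with H2-Eb1 at -2.44 ± 0.81 (SE, limma's adjusted p = 0.0715 in the 2-group fit) and 6 at an unadjusted p under 0.05. In that fit limma's adjusted p was 0.0915 for Cd74, 0.164 for H2-Ab1, 0.14 for H2-Aa, 0.0981 for H2-Ea and 0.0837 for H2-DMa. Each of the 6 calls was also lost in at least 1 fit that left out an array, all of them without PTC 1, where limma's adjusted p was 0.139 for H2-Ab1, 0.111 for H2-Aa, 0.154 for H2-Ea, 0.079 for H2-Eb1, 0.0727 for H2-DMa and 0.0667 for Cd74. JK arrays alone, with 3 recurrent tumours, gave -3.08 (limma's adjusted p = 0.0168) for H2-Eb1 and -2.66 (limma's adjusted p = 0.0061) for Cd74. Against ATC, H2-DMa fell by 1.63 ± 0.45 (SE, limma's adjusted p = 0.0387), a call lost in JK arrays alone (-1.52 (limma's adjusted p = 0.143)) and in the 2-group fit (-1.63 ± 0.51 (SE, limma's adjusted p = 0.212 in the 2-group fit)), and against normal glands 0 of 9 class II genes were called by either fit, with 1 lower at an unadjusted p under 0.05.

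The recurrent arrays differed widely among themselves. H2-Ab1 on the 9 recurrent arrays lay at 10.999, 6.86, 8.57, 9.77, 10.11, 7.71, 11.60, 10.35 and 11.82, in the order of their numbers. Its SD was greater than that of 95.6% of all genes in the same arrays, and that of H2-Eb1 and H2-Aa greater than 95.1% and 94.2%. Recurrent 2, 6 and 3 held the lowest levels of H2-Aa (8.01, 9.13 and 9.68) and of Cd74 (7.76, 8.25 and 8.80). Recurrent 9 held the highest of H2-Aa (12.62), Cd74 (12.01), H2-DMa (9.69) and H2-DMb2 (8.14).

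H2-Ab1 and Cd74 moved together over the 9 recurrent arrays, with Pearson's r of 0.986 and Spearman's rho of 0.983 (exact permutation tests, two-sided, p = 5.51e-06 and 4.96e-05, the first the smallest that 9 arrays can give; adjusted over 9 pairs 4.96e-05 and 0.000446). Within the 6 bare-number arrays r was 0.980, and without recurrent 2 and 6, the arrays farthest from the median of H2-Ab1, it was 0.974. H2-Ab1 and Csf1r gave r = 0.654 and rho = 0.50 (exact permutation p = 0.0544 and 0.178, adjusted 0.239 and 0.345), and without recurrent 2 and 6 r was -0.347. That relation therefore rests on recurrent 2 and 6, where Csf1r lay at 8.80 and 9.07. Recurrent 3 had H2-Ab1 at 8.57 beside a Csf1r level of 12.26, while recurrent 7 had H2-Ab1 at 11.60 beside Csf1r at 10.44. The other 7 pairs tested, among them H2-Ab1 with Ciita (r = 0.586, exact permutation p = 0.0798, adjusted 0.239) and with H2-K1 (r = 0.414, exact permutation p = 0.285, adjusted 0.366), did not pass.

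**Figure D4:**
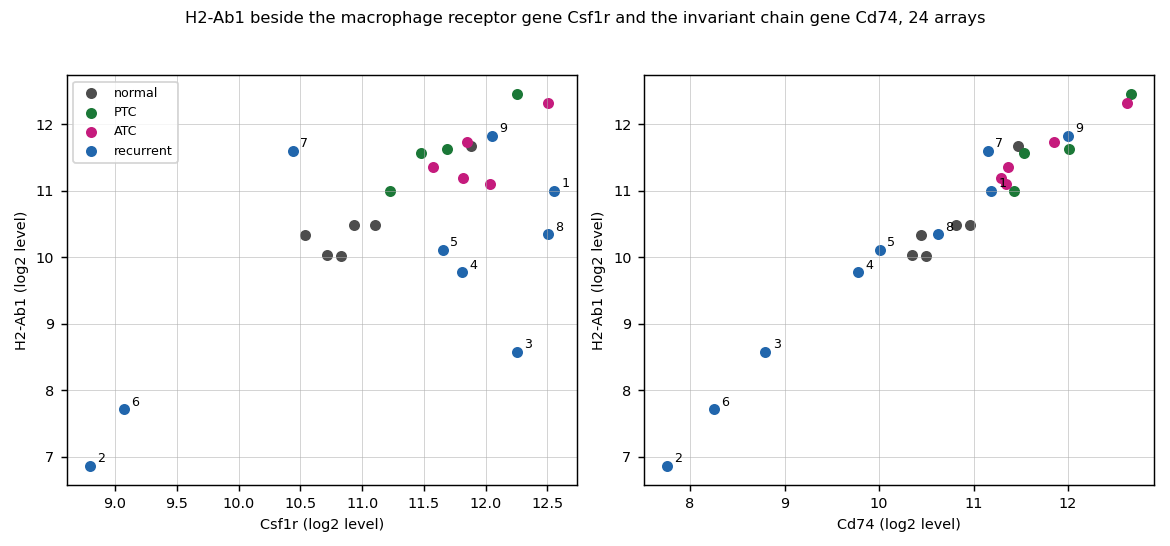
H2-Ab1 against Csf1r (left) and against Cd74 (right), log2 levels on 24 arrays coloured by tissue, with recurrent arrays numbered. On the left recurrent 3 lies at low H2-Ab1 (8.57) with high Csf1r (12.26) and recurrent 7 the other way round, and on the right the arrays follow a line.

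Single genes also parted from their partners on single arrays. On recurrent 8 H2-Eb1 lay at 7.10 while H2-Aa lay at 11.47, and on ATC 1 at 7.72 beside 12.01. On recurrent 9 the pair lay at 11.14 and 12.62. Levels of different probe sets are not on a common scale, so only the change of a gene between arrays can be read from these values. Ciita was highest on recurrent 7, at 7.49, where the highest of the other 8 recurrent arrays was 6.16. H2-K1 was lowest on recurrent 2 (10.63) and H2-D1 on recurrent 3 (9.81). On the probe sets used, H2-D1 on recurrent 2 was 11.94 and H2-K1 on recurrent 3 was 12.53. Another H2-K1 probe set of similar brightness had its lowest recurrent level on recurrent 3 (10.37) and lay at 11.65 on recurrent 2. A dimmer pair lay at 9.12 and 8.21 on recurrent 3 and at 8.55 and 6.21 on recurrent 2. The H2-K1 level on recurrent 3 therefore depends on the probe set. Recurrent 2 was also lowest of the 9 for Tap1, Tap2, Tapbp, Psmb8 and Psmb9.

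**Figure D5:**
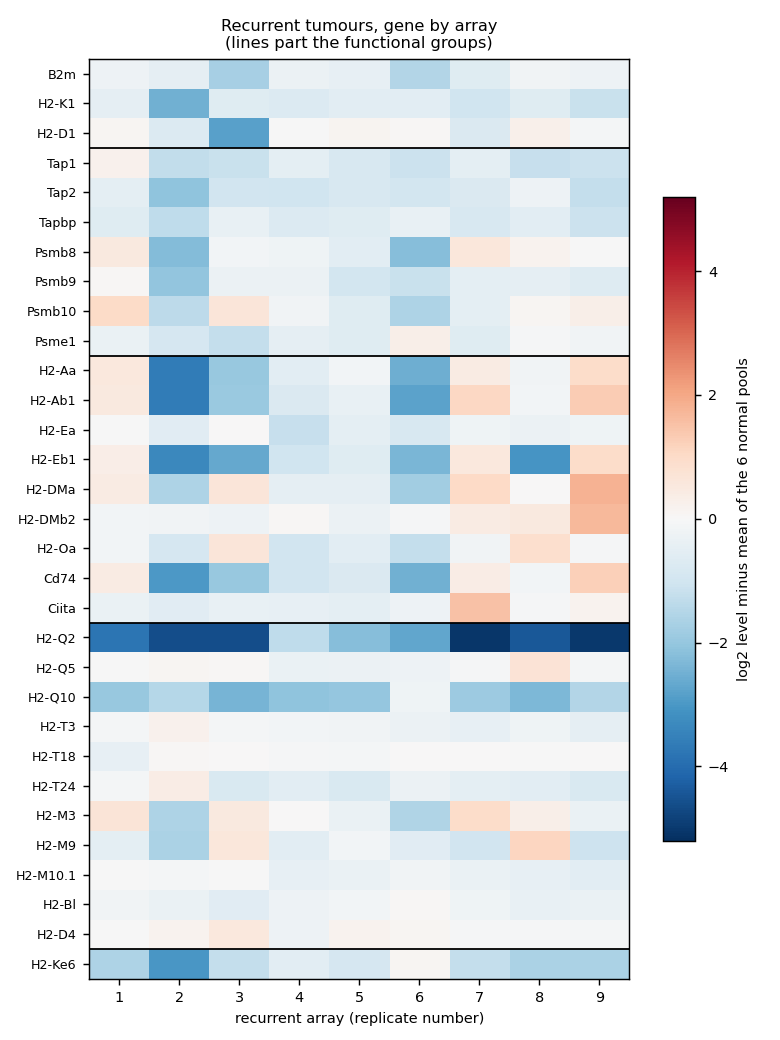
Log2 level minus the mean of the 6 normal pools for each of the 31 genes (rows) on each recurrent array (columns), blue where lower and red where higher. H2-Aa, H2-Ab1, H2-Eb1 and Cd74 are blue on recurrent 2, 3 and 6, and H2-Q2 is blue on all 9 arrays.

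Among the 11 other class I loci, H2-Q2, a gene of the Q region, had the largest differences of the 31 genes in ATC and recurrent tumours, against normal glands and against PTC alike. H2-Q2 lay from 7.42 to 8.90 with a median of 8.42 in normal pools, at 7.62, 7.87, 7.11 and 7.61 in PTC and at 3.86, 5.28, 3.95, 3.91 and 3.57 in ATC. Recurrent arrays lay at 4.55, 3.72, 3.71, 7.02, 6.14, 5.65, 3.30, 3.92 and 3.33. All ATC and all recurrent arrays lay below all normal and PTC arrays, and recurrent 4, 5 and 6 were the highest of the recurrent arrays. H2-Q2 fell by 4.23 ± 0.55 (SE, limma's adjusted p = 4.89e-06) in ATC and by 3.75 ± 0.48 (SE, limma's adjusted p = 3.48e-06) in recurrent tumours against normal, and by 3.44 ± 0.61 (SE, limma's adjusted p = 0.000429) in ATC against PTC. In PTC the difference was -0.79 ± 0.59 (SE, limma's adjusted p = 0.451), called in the 2-group fit (limma's adjusted p = 0.0375). JK arrays alone gave -3.52 (limma's adjusted p = 9.8e-05) for ATC. Thyroid follicular genes fell in the same groups, with 6 of 6 measured called lower in ATC and in recurrent tumours against normal (19.1% and 19.3% of all genes). ATC 4, with Tg at 13.48, had H2-Q2 at 3.91, like the ATC arrays with low Tg, and recurrent 4, with Tg at 14.18, had H2-Q2 at 7.02. Recurrent 1, next highest of the recurrent arrays for Tg, had H2-Q2 at 4.55. Recurrent 5 and 6, among the arrays with low Tg, had H2-Q2 at 6.14 and 5.65. Tg alone does not stand for the follicular genes. Their mean was 7.79 on ATC 4 and 8.33 on recurrent 4, against 9.91 to 10.57 in normal pools. Whether H2-Q2 follows the share of follicular or other cells was not tested.

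H2-Q10, which encodes a secreted class I protein of the liver, lay from 6.20 to 8.67 with a median of 7.22 in normal pools, at 5.22, 5.46, 5.64 and 5.76 in PTC, at 5.33, 6.01, 6.50, 5.52 and 5.85 in ATC and from 4.84 to 7.02 with a median of 5.30 in recurrent tumours. It fell by 1.73 ± 0.40 (SE, limma's adjusted p = 0.00531) in PTC, by 1.41 ± 0.38 (SE, limma's adjusted p = 0.00608) in ATC and by 1.77 ± 0.33 (SE, limma's adjusted p = 0.00025) in recurrent tumours, and was the single gene of the 31 called lower in PTC. H2-T24 fell by 0.79 ± 0.18 (SE, limma's adjusted p = 0.00172) in ATC. H2-T3, the thymus leukaemia antigen gene, lay at 6.51, 6.62, 6.58 and 6.52 in PTC against 6.35, 6.54, 5.99, 5.75 and 5.80 in ATC and fell by 0.47 ± 0.16 (SE, limma's adjusted p = 0.0393), not called in the 2-group fit (limma's adjusted p = 0.0517) and lost in 7 of the fits that left out an array. In PTC against normal the 4-group fit gave 0.45 ± 0.15 (SE, limma's adjusted p = 0.0504), called as a rise in the 2-group fit (limma's adjusted p = 0.00191). Its other probe set differed by 0.11 in ATC against PTC, the opposite sign. H2-M3, which presents formylated peptides, passed in 0 comparisons and, like Psmb8, was lowest on recurrent 2 (6.91) and recurrent 6 (6.97). H2-Bl, a class I pseudogene, fell by 0.48 ± 0.14 (SE, limma's adjusted p = 0.0249) in ATC against PTC, and H2-M10.1, of a family known from the vomeronasal organ, fell by 0.41 ± 0.14 (SE, limma's adjusted p = 0.0322) in recurrent tumours against PTC, both with levels under 6.2 on all arrays. The H2-M10.1 call was lost in the 2-group fit (limma's adjusted p = 0.0925) and in 5 of the fits that left out an array. H2-Q5, H2-T18, H2-M9 and H2-D4 were called in 0 comparisons of the 4-group fit, with levels between 3.69 and 6.86, in the lower part of the scale, where arrays compress differences. The 2-group fit called H2-M9 lower in PTC than in normal glands by 0.82 ± 0.12 (SE, limma's adjusted p = 0.000224 in the 2-group fit). H2-Ke6, the dehydrogenase, fell by 1.80 ± 0.33 (SE, limma's adjusted p = 0.00021) in ATC and by 1.30 ± 0.29 (SE, limma's adjusted p = 0.00123) in recurrent tumours. Against PTC it fell in ATC by 1.07 ± 0.37 (SE, limma's adjusted p = 0.0471), a call lost in 18 of the fits that left out an array, and in PTC the difference from normal was -0.73 ± 0.35 (SE, limma's adjusted p = 0.188), called in the 2-group fit (limma's adjusted p = 0.000189).

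Companion genes of class II presentation and of its control were read from lists named beside the members. Of 9 measured endosomal processing and costimulation genes, 4 rose and 0 fell in ATC against normal (15.1% and 19.1% of all genes), with 0 falls at an unadjusted p under 0.05 and 5 rises and 1 fall in the 2-group fit. In recurrent tumours 2 rose and 3 fell against normal, where 14.5% and 19.3% of all genes did (2 and 0 in the 2-group fit). Ctss, the cathepsin that trims the invariant chain, rose by 2.56 ± 0.61 (SE, limma's adjusted p = 0.00229), Lgmn, an endosomal protease, by 1.92 ± 0.34 (SE, limma's adjusted p = 0.00014), and Ifi30, an endosomal thiol reductase, by 1.42 ± 0.25 (SE, limma's adjusted p = 0.000131). Of 12 measured factors that bind class I and II promoters, 2 rose and 3 fell in ATC against normal, shares near the 15.1% and 19.1% of all genes. Their median difference was 0.004. The 2 rises are not among the genes named below, so those genes do not stand for the list. Rfx5, the X box binding subunit that class II and class I promoters both need, lay from 9.11 to 9.56 with a median of 9.41 in normal pools, at 9.20, 9.45, 9.31 and 9.28 in PTC, at 8.05, 8.23, 7.70, 8.14 and 7.60 in ATC and from 7.95 to 8.68 with a median of 8.24 in recurrent tumours. It fell by 1.42 ± 0.14 (SE, limma's adjusted p = 1.43e-07) in ATC and by 1.08 ± 0.12 (SE, limma's adjusted p = 6.93e-07) in recurrent tumours, with no array in the normal or PTC range. Rfxank, its partner, fell by 1.05 ± 0.25 (SE, limma's adjusted p = 0.00216) in ATC, and Nfyc, a subunit of the CCAAT-binding factor, by 0.86 ± 0.13 (SE, limma's adjusted p = 2.6e-05). Irf8, a transcription factor of myeloid cells, fell by 2.15 ± 0.56 (SE, limma's adjusted p = 0.00804) in recurrent tumours against PTC.

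Of 15 measured genes of interferon gamma signalling and response, 1 rose and 4 fell in ATC against normal (15.1% and 19.1% of all genes), and 0 rose and 4 fell in recurrent tumours (14.5% and 19.3%), where 1 rise and 6 falls had an unadjusted p under 0.05. Iigp1, an interferon-induced GTPase, lay from 8.68 to 11.13 with a median of 9.87 in normal pools, at 11.38, 11.32, 10.81 and 11.14 in PTC and at 7.62, 8.25, 7.60, 8.13 and 7.91 in ATC. It fell by 1.93 ± 0.62 (SE, limma's adjusted p = 0.0187) in ATC against normal and by 3.26 ± 0.69 (SE, limma's adjusted p = 0.00211) against PTC, with no ATC array in the normal or PTC range. Igtp, another such GTPase, fell by 1.62 ± 0.42 (SE, limma's adjusted p = 0.00439) in ATC, and Ifngr1, a subunit of the interferon gamma receptor, rose by 0.87 ± 0.30 (SE, limma's adjusted p = 0.0302). In PTC against normal 0 of 15 were called in either direction, with 0 higher and 1 lower at an unadjusted p under 0.05, while the 2-group fit called 2 higher and 1 lower. Jak2, the kinase that carries the receptor's signal, fell by 0.68 ± 0.18 (SE, limma's adjusted p = 0.0289) in recurrent tumours against ATC and by 1.14 ± 0.17 (SE, limma's adjusted p = 1.99e-05) against normal. Its call against ATC was lost in the 2-group fit, which called 0 of the 15 genes there in either direction.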

How the data were processed

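Log2 intensities of 22690 probe sets were deposited by the authors for 24 samples, made with RMA in Partek per the submitters' processing notes, versions not given in the sources used here. RMA brings arrays to a common distribution, so a shift of all genes would not be seen, and extreme levels are compressed. Names came from the platform annotation (20393 probe sets with 1 symbol, 691 with several, 1606 with none), updated by gene ID with RefSeq GRCm38.p6 (20364 matched, 29 kept their symbol). Each gene was read through its highest-mean single-symbol probe set. The 31 genes had 54 probe sets, and 15 that name such a gene with others were left out. Many of them end in x_at or s_at and can read related genes.

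Samples were grouped by tissue label. Replicate numbers were given by accession order, so no samples are paired. The 4 group means were fitted with limma 3.58.1 (R 4.3.3, version 1.17.8 of data.table) to 12394 genes with Benjamini-Hochberg adjustment, called under 0.05, and a fit of the compared groups alone was set beside it. On data simulated for each comparison over 12394 genes with 200 changed, 2-fold changes were recovered at 60% for PTC, 56% for ATC and 66% for recurrent against normal, 57% (ATC) and 73% (recurrent) against PTC and 61% between recurrent tumours and ATC, and 4-fold changes at 85%, 88%, 95%, 87%, 87% and 97%. Unchanged genes made up 0%, 3.36%, 12.5%, 4.64%, 4.76% and 15.5% of those calls. The shares for recurrent tumours against normal and against ATC lie above the threshold of 0.05. The simulation used independent noise and changed fewer genes than were called in any real comparison. Its percentages therefore need not hold for the real fits. Correlations used exact permutation tests (SciPy 1.17.1, NumPy 2.4.6, pandas 2.3.3, Python 3.11.15), and figures matplotlib 3.10.9.

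Named genes are the main class I and class II genes in every comparison, the 5 largest rises and falls among called genes, and up to 3 called genes of each companion list, of which the text gives a part. The genes, lists and tests were chosen with earlier results of these data known. Alternatives were the title kind as a block or alone, other probe set choices, normalization, a filter on dim genes, spread models, array weights and leaving out each array.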

Additional observations from a re-analysis of the deposited data

Results flagged for a closer look

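Within groups of 4 to 9 arrays, 124 gene and group pairs were checked for an array far from the others (Dixon's 95% limit), and 12 stood apart, where chance gives about 1 in 20.

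Class I chains gave 4 of them. H2-K1 was 13.49 on normal 5 (13.17 on the next pool), 11.59 on ATC 1 (next 12.06) and 10.63 on recurrent 2 (next 12.00). H2-D1 was 9.81 on recurrent 3, where the next recurrent array had 11.88.

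Class II genes gave 3. H2-Ab1 was 11.67 on normal 5 (next 10.49), H2-DMb2 was 8.14 on recurrent 9 (next 6.95) and Ciita was 7.49 on recurrent 7 (next 6.16).

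Other class I loci gave 5. H2-Q2 was 5.28 on ATC 2 (next 3.95), H2-Q5 was 4.79 on recurrent 8 (next 4.17), H2-Q10 was 7.02 on recurrent 6 (next 5.77), H2-T18 was 4.63 on recurrent 1 (next 4.94) and H2-D4 was 5.46 on normal 2 (next 4.98).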

How the results depend on the processing

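Counts below are higher and lower calls among the 31 genes. Fitting only the compared groups gave 8 and 5 in PTC against normal, 5 higher in ATC against normal, 0 lower in recurrent tumours against ATC and 4 lower against PTC; without normal replicate 5 it gave 9 and 4 in PTC and 5 higher in ATC against normal. Array weights gave 9 and 6 in PTC and 5 higher in ATC against normal, 1 higher in ATC against PTC and 0 lower in recurrent tumours against ATC. JK-titled arrays alone gave 4 and 2 in PTC and 0 higher in ATC against normal, 3 lower in ATC against PTC and 0 lower in recurrent tumours against ATC, as did bare-number arrays alone. With title kind as a block, 2 were higher in PTC and 0 in ATC against normal, and 2 lower in recurrent tumours against ATC. The filter on dim genes gave 2 higher in PTC against normal. Plain _at probe sets, which cover 21 of the 31 genes, gave 0 lower in PTC, 6 in ATC and 5 in recurrent tumours against normal, and 9 in recurrent tumours against PTC. With them H2-T3 turned from lower to 0.11 in ATC and 0.015 in recurrent tumours against PTC. The cause of these shifts was not tested. Other counts stayed within 1.5 times.

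Leaving out each array gave 0 to 3 higher and 1 to 2 lower in PTC, 1 to 2 and 9 to 11 in ATC and 0 and 7 to 11 in recurrent tumours against normal, 5 to 10 lower in ATC and 7 to 15 in recurrent tumours against PTC, and 0 to 3 lower in recurrent tumours against ATC. Of 48 called differences, 20 were lost in at least 1 such fit. No paired analysis was possible because replicate numbers came from accession order. The other probe sets of called genes gave 31 differences over the comparisons, a probe set counting once for each call. Of these, 9 had the opposite sign, in Tap1, Tapbp and H2-T3. Precision is limited by the number of arrays and, for dim probe sets, by signal near background.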
